A study of Mus musculus with 12 samples.

Results

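The 10 genes described here, Shank2, Tmem132e, Sertad4, Eps8l2, Rbm24, Hspa12b, Fmn2, Uchl1, Ltbp4 and Padi3, are genes best known from other tissues that were read at 13.7 to 105 CPM (reads scaled by TMM to a common library size) in EuMyc B cells and close to silent in the other groups. They are 10 of the 24421 genes in the count tables, and all 10 symbols were found. They were chosen on their values: a low level in WT, a high level in EuMyc and a low level again in EuMyc Max KO. Those differences are therefore given as a description, with no test. RNA was sequenced from B220+ cells of the spleens of 12 mice aged 4 to 5 weeks, 3 mice for each of 4 genotypes. WT mice had intact Max and no transgene, Max KO mice had lost Max conditionally, EuMyc mice carried the EuMyc transgene with intact Max (labelled EuMyc Max WT), and EuMyc Max KO mice carried the transgene and had lost Max. The deleting Cre, the deleted exons and whether the WT mice carried the Cre are not given by the labels. The series title calls the EuMyc cells premalignant.

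MYC is a transcription factor that binds DNA as a dimer with MAX, at the E-box CACGTG and related sequences. MAX also pairs with the MXD proteins, MNT and MGA, which are known as antagonists of MYC at the same sites. In EuMyc mice Myc is driven by the enhancer of the immunoglobulin heavy chain gene in B lineage cells, and the mice develop B cell lymphoma. The 10 genes have no common function. SHANK2 is a scaffold of excitatory synapses and UCHL1 a deubiquitinase abundant in neurons. TMEM132E is a membrane protein and EPS8L2 an actin regulator, both known from hearing, and FMN2 is a formin that nucleates actin in oocytes and neurons. RBM24 regulates splicing in heart and skeletal muscle, and SERTAD4 belongs to a family of transcriptional coregulators. HSPA12B is an atypical HSP70 chaperone of endothelium, LTBP4 a matrix protein that binds latent TGF-beta, and PADI3 an enzyme of the hair follicle that converts arginine to citrulline.

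Libraries held 14973332 to 21671601 reads assigned to genes. B220+ libraries carried the markers of B cells: the 11 mature B cell genes measured summed to 22750 to 24493 CPM in WT and 4115 to 5680 CPM in EuMyc. Reads at Myc were 2003, 1690 and 1775 in WT and 2405, 1934 and 2096 in Max KO, against 20171, 19741 and 19271 in EuMyc but 9501, 10310 and 9374 in EuMyc Max KO. Every transgenic library was above every library without the transgene. Reads at Max, the deleted gene, were 2417, 1941 and 1821 in WT and 1798, 1601 and 1747 in Max KO, against 2613, 2397 and 2488 in EuMyc but 2000, 1889 and 1966 in EuMyc Max KO. A count over the whole gene also takes in exons that a deletion leaves, so these values do not check the knockout labels.

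The promoters of 9 of the 10 genes were matched in RefSeq's table for GRCm38.p6, as 12 windows of 300 bases from 250 before to 50 after an annotated start. Bases -250 to -11 of 4 of them are printed here to set start regions with a motif match beside start regions without one: Tmem132e and Sertad4 hold a match to an E-box or to its variant CACGCG, and Rbm24 and Padi3 hold neither. Capitals mark CACGTG and CACGCG, the latter read on either strand (CGCGTG). The windows are chr11:82388650-82388889 (plus strand) for Tmem132e, chr1:192855763-192856002 (minus strand) for Sertad4, chr13:46418050-46418289 (plus strand) for Rbm24 and chr4:140810659-140810898 (minus strand) for Padi3, each upstream of the gene in GENCODE vM21 and printed 5′ to 3′ on the strand of the gene.
Tmem132e: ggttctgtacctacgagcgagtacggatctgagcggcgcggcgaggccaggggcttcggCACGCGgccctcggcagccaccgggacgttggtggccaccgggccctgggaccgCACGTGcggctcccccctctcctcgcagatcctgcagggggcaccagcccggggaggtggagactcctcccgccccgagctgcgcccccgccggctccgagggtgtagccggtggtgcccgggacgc
Sertad4: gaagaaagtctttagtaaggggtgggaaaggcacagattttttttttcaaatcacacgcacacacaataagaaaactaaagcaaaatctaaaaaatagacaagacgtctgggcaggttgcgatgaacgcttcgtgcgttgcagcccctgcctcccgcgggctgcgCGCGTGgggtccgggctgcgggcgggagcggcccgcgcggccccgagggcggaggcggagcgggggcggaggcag
Rbm24: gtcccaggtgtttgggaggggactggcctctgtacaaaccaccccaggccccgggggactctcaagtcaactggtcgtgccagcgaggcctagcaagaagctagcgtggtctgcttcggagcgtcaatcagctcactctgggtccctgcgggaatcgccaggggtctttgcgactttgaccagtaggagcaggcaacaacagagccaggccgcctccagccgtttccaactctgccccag
Padi3: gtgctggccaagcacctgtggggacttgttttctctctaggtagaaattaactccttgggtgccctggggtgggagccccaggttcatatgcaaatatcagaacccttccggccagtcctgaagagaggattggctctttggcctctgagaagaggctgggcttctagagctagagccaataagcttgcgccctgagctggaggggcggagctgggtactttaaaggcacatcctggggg

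Tmem132e held CACGTG at -137 and CACGCG at -191, counted from the start. It was the 1 of 9 genes with CACGTG in a window, 11.1% of them, against 8.09% of all genes in the promoter table and 9.17% of those that are also in the count tables. CACGCG on either strand lay in the windows of 3 of 9 genes, 33.3%, against 10.5% and 13.9% of the same 2 sets: Tmem132e, Sertad4 at -85 and Ltbp4 at -117 or -102 from its alternative starts. In Ltbp4 this is 1 site, seen in 2 windows that overlap. The other window of Sertad4 and the remaining window of Ltbp4 held none of the 3 motifs. CATGTG on either strand lay in 0 of the 12 windows, against 14.2% of all promoters and 11.4% of those of genes in the count tables. The other 6 genes with a window, Eps8l2, Rbm24, Hspa12b, Fmn2, Uchl1 and Padi3, held none of the 3 motifs in these 300 bases. No match overlapped another within a window. The 12 windows, with the 2 overlapping ones of Ltbp4 both counted, had a median of 18.5 CG pairs. It was 7 in all promoters and 13 in those of genes in the count tables. Their median GC content was 64.7%, against 52.7% and 56.7%.

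The genes lie on 7 chromosomes, here with their mm10 positions in GENCODE vM21, in which all 10 are protein-coding. Shank2 is at chr7:144001928-144424494 (plus strand), Eps8l2 at chr7:141338880-141363020 (plus) and Ltbp4 at chr7:27305136-27337692 (minus). Sertad4 is at chr1:192844488-192855756 (minus) and Fmn2 at chr1:174501825-174822729 (plus). Tmem132e is at chr11:82388900-82446332 (plus), Rbm24 at chr13:46418434-46431095 (plus), Hspa12b at chr2:131127280-131146321 (plus), Uchl1 at chr5:66676091-66687234 (plus) and Padi3 at chr4:140785365-140810648 (minus). The closest pair is Eps8l2 and Shank2, 2.639 Mb apart, followed by Fmn2 and Sertad4 at 18.022 Mb.

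Among the neuronal and synaptic genes, reads at Shank2 were 2, 12 and 4 in WT and 1, 1 and 1 in Max KO, against 349, 258 and 289 in EuMyc but 0, 2 and 0 in EuMyc Max KO. The 3 EuMyc libraries stood far above the other 9, and 2 of 3 EuMyc Max KO libraries held no read. As a level, Shank2 averaged 0.345 ± 0.298 CPM in WT (SD, n = 3 here and below) and 0.0592 ± 0.00412 in Max KO, against 15.2 ± 1.58 in EuMyc but 0.0365 ± 0.0633 in EuMyc Max KO. With 2 reads in all of EuMyc Max KO, the ratio of EuMyc to it was 428, with a 95% counting interval of 118 to 3536 that covers counting error only. Uchl1 had 19, 16 and 15 reads in WT and 4, 16 and 15 in Max KO, against 1127, 982 and 1085 in EuMyc but 19, 23 and 13 in EuMyc Max KO. Its means were 0.964 ± 0.108, 0.702 ± 0.420, 54.5 ± 2.24 and 0.988 ± 0.294 CPM in that order. The WT and EuMyc Max KO libraries of Uchl1 overlapped, and EuMyc was 56.5 times the WT mean.

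Tmem132e, the membrane protein, had 27, 31 and 6 reads in WT and 0, 5 and 1 in Max KO, against 2066, 1836 and 1778 in EuMyc but 16, 9 and 8 in EuMyc Max KO. Its means were 1.22 ± 0.757, 0.126 ± 0.170, 96.8 ± 3.57 and 0.592 ± 0.240 CPM. WT replicates 1 and 2 were its highest libraries outside EuMyc, and no Max KO library reached the lowest WT library. Eps8l2, the actin regulator, had 3, 5 and 6 reads in WT and 0, 1 and 0 in Max KO, against 330, 620 and 541 in EuMyc but 12, 3 and 5 in EuMyc Max KO. This gene varied most among EuMyc mice: replicate 1 had 16.0 CPM against 33.0 and 28.3 in the other two. Its means were 0.271 ± 0.0934, 0.0213 ± 0.0369, 25.7 ± 8.78 and 0.358 ± 0.257 CPM. The formin gene Fmn2 had 2, 5 and 3 reads in WT and 1, 4 and 2 in Max KO, against 340, 206 and 264 in EuMyc but 6, 5 and 2 in EuMyc Max KO. Outside EuMyc, the 3 groups of Fmn2 overlapped, and its means were 0.192 ± 0.0856, 0.142 ± 0.102, 13.7 ± 2.75 and 0.234 ± 0.116 CPM.

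The splicing regulator Rbm24 had 7, 7 and 2 reads in WT and 2, 13 and 3 in Max KO, against 1061, 884 and 1069 in EuMyc but 28, 13 and 5 in EuMyc Max KO. Max KO replicate 2 and EuMyc Max KO replicate 1 were the high libraries of their groups, and the 3 groups outside EuMyc overlapped. Its means were 0.306 ± 0.162, 0.372 ± 0.399, 51.4 ± 4.43 and 0.829 ± 0.635 CPM. Sertad4, of the coregulator family, had 4, 6 and 2 reads in WT and 0, 1 and 1 in Max KO, against 865, 735 and 741 in EuMyc but 18, 9 and 1 in EuMyc Max KO. It had the highest ratio of EuMyc to WT of the 10 genes, 173, from means of 0.230 ± 0.111 and 39.9 ± 1.70 CPM. In EuMyc Max KO its libraries ran from 0.0520 to 0.974 CPM, below to above the whole WT range.

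The chaperone gene Hspa12b had 7, 9 and 5 reads in WT and 7, 0 and 7 in Max KO, against 734, 773 and 813 in EuMyc but 21, 11 and 6 in EuMyc Max KO. Its means were 0.403 ± 0.107, 0.265 ± 0.230, 39.7 ± 3.70 and 0.684 ± 0.418 CPM, and the groups outside EuMyc overlapped. Ltbp4, which encodes the matrix protein, had 72, 43 and 41 reads in WT and 27, 16 and 25 in Max KO, against 2362, 1873 and 1944 in EuMyc but 44, 31 and 37 in EuMyc Max KO. It had the highest CPM of the 10 genes in every group, with means of 3.00 ± 0.972, 1.33 ± 0.266, 105 ± 7.94 and 2.001 ± 0.347, and the lowest ratio of EuMyc to WT, 35.0. All 3 EuMyc Max KO libraries of Ltbp4 were below all 3 WT libraries. Padi3, of the hair follicle, had 0, 1 and 9 reads in WT and 3, 0 and 1 in Max KO, against 272, 236 and 349 in EuMyc but 2, 7 and 8 in EuMyc Max KO. Its WT mean of 0.198 ± 0.294 CPM came mostly from replicate 3, and its EuMyc mean was 14.6 ± 3.12 CPM against 0.303 ± 0.169 in EuMyc Max KO.

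**Figure D1:**
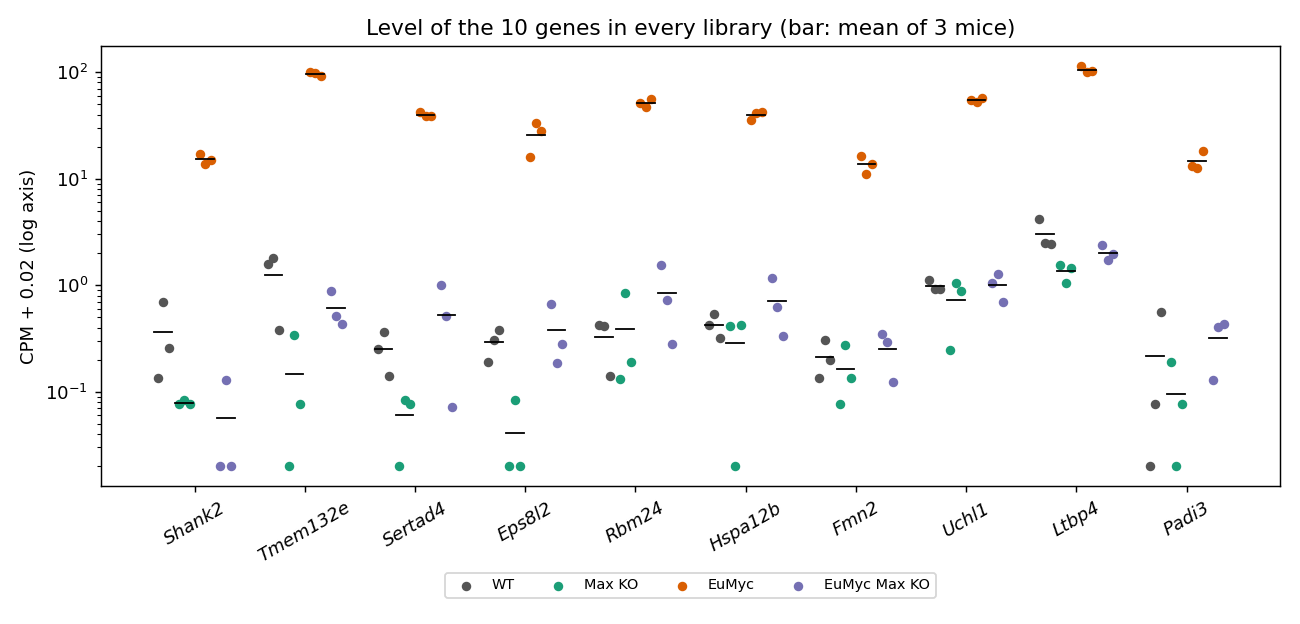
Level of each of the 10 genes in the 12 libraries, as CPM plus 0.02 on a log axis, with 1 point per mouse and a bar at the mean of each group of 3. The EuMyc points stand above all 9 other libraries for each of the 10 genes, with means between 13.7 and 105 CPM, while the means of the other 3 groups are at or under 3.00 CPM. The genes were chosen on the WT, EuMyc and EuMyc Max KO values, and the share of all tested genes with this order was not counted.

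Across the 10 genes the mean CPM had a median of 0.325 in WT and 0.134 in Max KO, against 39.8 in EuMyc but 0.549 in EuMyc Max KO. All 3 EuMyc libraries were above all 9 others for 10 of 10 genes. Against the WT and EuMyc Max KO libraries this follows from the choice of the genes, while the Max KO libraries played no part in that choice. The share of all tested genes with this order was not counted, so it is given as a description. Of all 12878 genes that passed the filter on low counts, 36.7% were called higher in EuMyc than in WT and 36.1% lower in EuMyc Max KO than in EuMyc by edgeR's quasi-likelihood test, at a Benjamini-Hochberg adjusted p under 0.05. These comparisons share the 3 EuMyc libraries. All 10 genes passed the filter. Tmem132e, Rbm24, Uchl1 and Ltbp4 reached its level in at least 3 libraries outside EuMyc, while the other 6 passed through the EuMyc libraries. The ratio of EuMyc to WT ran from 35.0 (Ltbp4) to 173 (Sertad4), with a median of 76.6. The WT mean was 0.576% (Sertad4) to 2.86% (Ltbp4) of the EuMyc mean, and the EuMyc Max KO mean 0.240% (Shank2) to 2.07% (Padi3). Ranked by log2 fold change among all tested genes, the 10 took places between 10 (Sertad4) and 48 (Ltbp4) from the top in EuMyc against WT. In EuMyc Max KO against EuMyc they lay between place 1 (Shank2) and 18 (Padi3) from the bottom, with Tmem132e at place 5.

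Per length of exon, the order of the EuMyc levels changed. In RPKM, the CPM divided by exonic length in kilobases, Uchl1 was highest at 33.4, followed by Tmem132e at 20.6, Ltbp4 at 16.3 and Rbm24 at 14.7. Hspa12b at 10.8 and Sertad4 at 10.4 lay close together, then came Eps8l2 at 4.78 and Padi3 at 4.25, and Fmn2 at 1.72 and Shank2 at 1.41 were lowest. Between the neighbours Ltbp4 and Rbm24, Hspa12b and Sertad4, Eps8l2 and Padi3, and Fmn2 and Shank2 the levels of the 3 mice overlapped. The coefficient of variation in EuMyc ran from 3.69% (Tmem132e) to 34.1% (Eps8l2) over the 10 genes. Its median over the 10 genes was 8.97%, against 6.20% over the 5863 tested genes within their CPM range in EuMyc.

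The scatter of all tested genes shows where the 10 lie. Reads at Myc, transgene and endogenous gene together, fell less: EuMyc Max KO kept 46.0% of the rise of Myc over WT, from 106 ± 9.37 CPM in WT to 1010 ± 37.1 in EuMyc and 522 ± 39.5 in EuMyc Max KO. For the 10 genes the share of the rise that was kept lay between -2.07% (Shank2) and 1.02% (Rbm24), where a negative share means a level below WT. The median over the 4730 genes called higher in EuMyc was 4.21%, and 1052 of them kept over 25%. A low kept share is what the genes were chosen for.

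**Figure D2:**
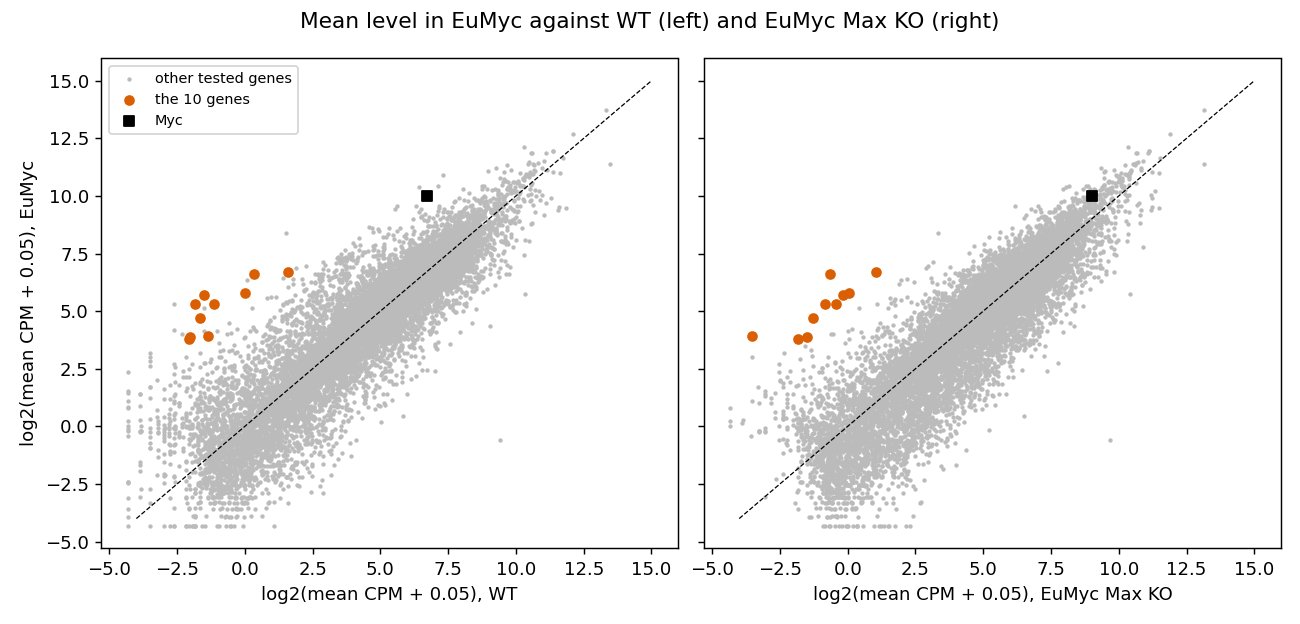
Mean level in EuMyc on the y axis against WT (left) and EuMyc Max KO (right) on the x axis, as log2 of the mean CPM plus 0.05, for 12878 tested genes (grey), the 10 genes (orange) and Myc (black square). The dashed line marks equal levels. The 10 genes lie far above it in both panels, while Myc lies closer to it on the right, where its mean is 522 CPM in EuMyc Max KO.

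Marker genes of B cell stages differed between the same groups. Of 14 tested pro-B and pre-B cell genes 11 were higher and 2 lower in EuMyc than in WT, and their list summed to 1106 to 1283 CPM in WT and 1111 to 1258 in Max KO, against 3190 to 3333 in EuMyc but 1365 to 2188 in EuMyc Max KO. Of these, Rag1, Rag2, Il7r, Myb, Sox4 and Bach2 both rose in EuMyc and fell in EuMyc Max KO. They were 6 of 14, or 42.9%, against 31.7% of all tested genes. Another 2 of the 14 were higher in EuMyc Max KO than in EuMyc. Of the 11 that rose in EuMyc, 5 kept over 25% of the rise in EuMyc Max KO. Rag2, a recombinase subunit of B and T cell precursors, went from 0.115 to 40.2 and then 2.07 CPM. All 11 tested mature B cell genes were lower in EuMyc, and all 11 were higher in EuMyc Max KO, where they summed to 17403 to 21095 CPM. No gene of either list was at 0 reads in all libraries. In bulk samples, more cells of a type and more RNA per cell cannot be told apart. The part of cell makeup in the levels of the 10 genes was not tested.

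In the other lists, all 9 tested T cell genes, 6 of 8 NK cell genes, 11 of 12 monocyte and macrophage genes and 9 of 10 dendritic cell genes were lower in EuMyc. Of 7 neutrophil genes 1 was lower. Of 7 plasma cell genes 3 were lower, Xbp1 and Prdm1 among them, and 1, Irf4, was higher. Of 8 erythroid genes 6 were higher in EuMyc, and the list summed to 1181 to 6110 CPM in EuMyc Max KO against 726 to 859 in EuMyc. Also higher in EuMyc Max KO than in EuMyc were all 9 T cell, 8 NK cell, 12 monocyte and macrophage and 7 neutrophil genes. So were 9 of 10 dendritic cell, 7 of 8 erythroid and 3 of 7 plasma cell genes, against 37.6% of all tested genes, and 1 plasma cell gene was lower. Monocyte and macrophage genes summed to 3038 to 5105.5 CPM in EuMyc Max KO and 781 to 946 in EuMyc. Of 30 MYC target genes 29 were higher in EuMyc and 28 of them fell in EuMyc Max KO, Phgdh, Cdk4 and Pa2g4 with the smallest p in EuMyc against WT.

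Without the transgene, Tmem132e and Ltbp4 were lower in Max KO than their low WT levels. The Max KO libraries played no part in choosing the genes, but the WT libraries did, for a low level, so the comparison is not independent of that choice. Tmem132e fell by 3.31 on the log2 scale (SE 0.79, edgeR adjusted p = 0.0212), from 64 reads over the 3 WT libraries to 6 over the 3 Max KO libraries. Ltbp4 fell by 1.17 (SE 0.23, edgeR adjusted p = 0.00722), from 156 reads to 68. These were 2 of 10 genes called lower, with 0 of 10 higher by edgeR, also at an unadjusted p under 0.05, and 0 higher by DESeq2, against 7.74% of all tested genes called lower, 7.27% called higher and 15% called in either direction. The call for Tmem132e was lost without WT replicate 1 (edgeR adjusted p = 0.077), WT replicate 2 (0.0637), Max KO replicate 1 (0.0724) or Max KO replicate 3 (0.0645). Without any other library, and by DESeq2, both calls held.

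The other 8 genes gave no call between Max KO and WT by edgeR. Of these, Shank2, Sertad4, Eps8l2, Hspa12b, Fmn2 and Padi3 passed the filter only through the EuMyc libraries, where they were chosen to be high. The WT values also took part in the choice, so the p-values and calls of those genes are a description only. Eps8l2 had a log2 fold change of -3.38 (SE 1.13, edgeR adjusted p = 0.0645) and Shank2 of -2.42 (SE 0.82, edgeR adjusted p = 0.0650). DESeq2, an alternative model, called Eps8l2 (adjusted p = 0.0251) and Shank2 (0.0358) as lower in Max KO. With 1 read over the 3 Max KO libraries, Eps8l2 had a WT to Max KO ratio of 13.7 with a 95% counting interval of 2.09 to 581, and with 3 reads Shank2 had 5.89, from 1.72 to 31.2. For Sertad4 the log2 fold change was -2.36 (SE 1.18, edgeR adjusted p = 0.203), on 12 and 2 reads, a ratio of 5.89 with an interval of 1.31 to 54.2. Padi3 at -1.23, Hspa12b at -0.55, Uchl1 at -0.48, Fmn2 at -0.46 and Rbm24 at 0.21 had edgeR adjusted p-values between 0.427 and 0.903. Eps8l2 was also called by edgeR without EuMyc replicate 1 (0.0402) or EuMyc Max KO replicate 1 (0.0384). Shank2 was called without WT replicate 1 (0.0466) or EuMyc Max KO replicate 3 (0.0459), and Sertad4 without EuMyc Max KO replicate 3 (0.0381). Other libraries left out weakened these genes. Without WT replicate 2, which held 12 of its 18 WT reads, Shank2 was at -1.47 (edgeR adjusted p = 0.291). Without Max KO replicate 1 the edgeR adjusted p was 0.185 for Eps8l2 and 0.412 for Sertad4. The sign for Rbm24 and Padi3 turned when a library was left out: Rbm24 was at -0.16 without WT replicate 3 and -1.08 without Max KO replicate 2, and Padi3 at 1.27 without WT replicate 3.

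The mean CPM was lower in Max KO than in WT for 9 of 10 genes, Rbm24 being the exception. Of all 12878 tested genes, 6505 had a log2 fold change below 0 in this comparison. The count of 9 is a description, since the WT values were among those that chose the genes and 6 of the genes passed the filter through EuMyc. The 10 genes together had 143, 135 and 93 reads in the WT libraries and 45, 57 and 56 in Max KO, so that these levels rest on few reads. With 3 mice against 3, the smallest p of an exact permutation test (two-sided) is 0.1.

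EuMyc Max KO libraries held 166, 113 and 85 reads of the 10 genes, against 9506, 8403 and 8873 in EuMyc. The EuMyc Max KO mean was above the Max KO mean for 9 of 10 genes, Shank2 being the exception, and above the WT mean for 7 of 10, the exceptions being Shank2, Tmem132e and Ltbp4. Of the 12878 tested genes, 6397 had a log2 fold change above 0 in EuMyc Max KO against Max KO and 6423 against WT. The WT and EuMyc Max KO values chose the genes, and the counts for the 10 genes were not tested. EuMyc Max KO replicate 1 was the highest of its group for 7 of 10 genes. The same library had the largest share of reads mapping to more than 1 place, 27.9%, against 20.3% to 27.0% in the other 11. Leaving out libraries 1 at a time moved the median of the 10 means in EuMyc Max KO between 0.427 and 0.704 CPM, and in EuMyc between 39.4 and 40.6.

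The 4 overlapping genes that were counted took few reads. Gm15867, antisense to Sertad4, had 5, 2 and 9 reads in EuMyc and 0 in the other groups. B230206H07Rik, on the opposite strand of Eps8l2, had 13, 9 and 6 reads in EuMyc, 0, 1 and 0 in WT and 1, 1 and 0 in EuMyc Max KO. Uchl1os, antisense to Uchl1, had 1 read in all, and Mir3105, inside Shank2, had 0. Gm11037, on the strand of Hspa12b, and Gm44999 and Gm14372, opposite Shank2, also overlap in the annotation and were not analysed here. The labels do not give the strand setting of the counting, so reads of such partners cannot be told apart from those of the genes.

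Paralogues, genes of the same families, did not share the level of change. Of 26 listed paralogues 19 were tested, and in EuMyc against WT 9 were higher and 4 lower, 13 called in all, against 71.6% of all tested genes. In EuMyc Max KO against EuMyc 5 were higher and 5 lower, against 73.7% called of all genes, 37.6% higher and 36.1% lower. Higher and then lower were 5 of 19, or 26.3% (Eps8, Uchl3, Uchl4, Uchl5 and Bap1), against 31.7% of all tested genes. These paralogues were not chosen by their values, and the comparisons share the EuMyc libraries.

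SHANK1, the other synaptic scaffold read here, went the other way from Shank2: 22.3 ± 6.87 CPM in WT, 6.62 ± 1.68 in EuMyc and 29.8 ± 10.4 in EuMyc Max KO. It fell by 1.75 on the log2 scale in EuMyc (SE 0.31, edgeR adjusted p = 0.000444) and rose by 2.17 in EuMyc Max KO (SE 0.31, edgeR adjusted p = 9.1e-05). Shank3 stayed under 1 CPM in the 4 groups. Eps8, the actin regulator that names the family of Eps8l2, moved the same way as Eps8l2 from a higher base, at 25.5 ± 4.10, 93.8 ± 25.7 and 16.7 ± 2.14 CPM, a log2 rise of 1.88 (SE 0.21, edgeR adjusted p = 8.08e-06) and a fall of 2.49 (SE 0.21, edgeR adjusted p = 1.03e-06). Eps8l1 averaged 0.0191 CPM in WT, 0.208 in EuMyc and 1.92 in EuMyc Max KO, and Eps8l3 stayed under 0.1 CPM in each group.

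In the family of UCHL1, which removes ubiquitin from proteins, Uchl5 rose by 1.52 on the log2 scale (SE 0.08, edgeR adjusted p = 4.74e-09) and then fell by 1.38. Uchl3 rose by 0.93 and fell by 1.16, and the tumour suppressor Bap1 rose by 0.55 and fell by 0.74, all called by edgeR. Uchl4, which resembles Uchl3 so closely that reads may be split between them, averaged 0.485 CPM in WT and 1.13 in EuMyc. Its call in EuMyc against WT (edgeR adjusted p = 0.0419) was lost without WT replicate 1 or 2, Max KO replicate 3, any 1 EuMyc replicate or EuMyc Max KO replicate 2, at adjusted p-values of 0.0520 to 0.153. It was also lost by DESeq2 (0.0688), with library totals (0.0595) and with no filter (0.0589). Without EuMyc Max KO replicate 2 its fall was not called either (edgeR adjusted p = 0.0637).

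Sertad1 and Sertad2, coregulators of the family of Sertad4, fell by 0.55 and 0.58 in EuMyc (edgeR adjusted p = 0.00541 and 0.00666), and Sertad2 then rose by 1.32 (edgeR adjusted p = 1.6e-05). Sertad3 was at 17.0 CPM in WT and 17.1 in EuMyc, with no call. Rbm38, the splicing regulator closest to Rbm24, rose by 1.18 (SE 0.21, edgeR adjusted p = 0.000451), from 139 ± 17.2 to 316 ± 9.46 CPM. It was at 226 ± 75.3 in EuMyc Max KO (edgeR adjusted p = 0.0533), a difference that was called without EuMyc Max KO replicate 1 (0.00421), with a replicate block (0.0303) and by DESeq2 (0.0165). Fmn1, the other formin of its kind, was at 3.49 CPM in WT and 2.79 in EuMyc with no call, and rose by 1.33 in EuMyc Max KO (edgeR adjusted p = 6.31e-05). Tmem132a rose by 0.73 in EuMyc (edgeR adjusted p = 0.0107), from 3.31 to 5.50 CPM, and Tmem132b, Tmem132c and Tmem132d were under 0.1 CPM in each group. Hspa12a averaged 0.769 CPM in WT and 2.68 in EuMyc (edgeR adjusted p = 0.0799). Ltbp1, Ltbp2 and Ltbp3, the other latent TGF-beta binding proteins, were under 0.5 CPM in each group and did not pass the filter.

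**Figure D3:**
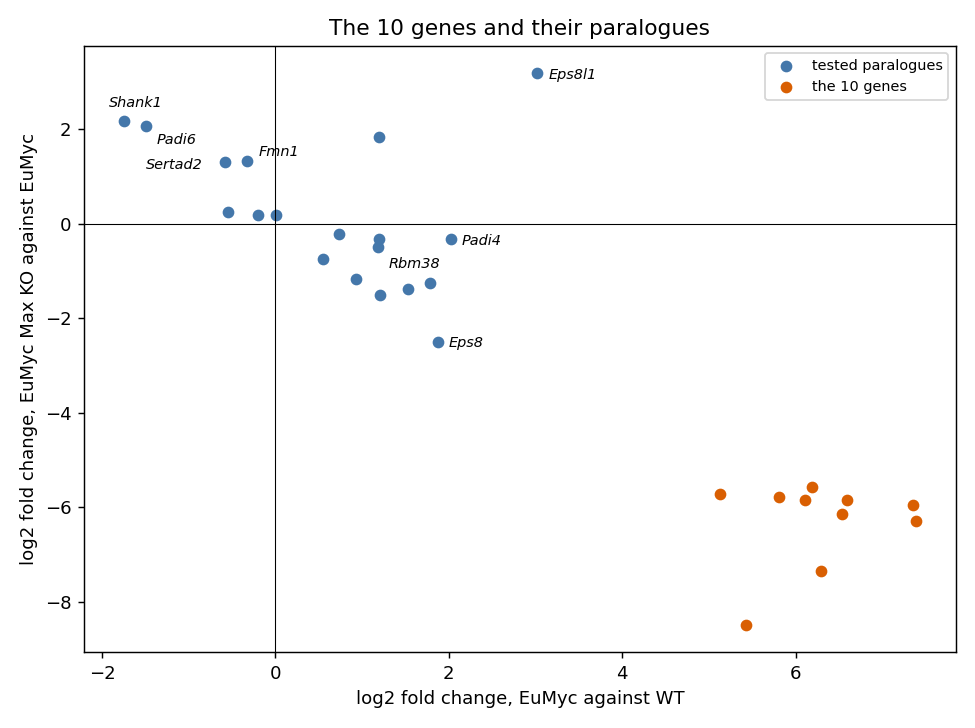
Log2 fold change in EuMyc against WT (x axis) and in EuMyc Max KO against EuMyc (y axis) for the 10 genes (orange) and 19 tested paralogues (blue), with 8 paralogues labelled. The axes share the EuMyc libraries. The 10 genes, chosen on these values, lie at x between 5.12 and 7.39, while the paralogues lie between -1.75 and 3.02.

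Per exonic length, the rank of each gene in its family differed between WT and EuMyc for 6 of the 10 families. In EuMyc, Shank2, Tmem132e, Hspa12b, Fmn2 and Ltbp4 had the highest RPKM of their families, and Hspa12b and Ltbp4 had it also in WT. Uchl1 at 33.4 RPKM lay close to Bap1 at 35.7, and Padi3 at 4.25 close to Padi2 at 5.17. Rbm24 stayed below Rbm38, at 14.7 against 110 RPKM, and Sertad4 below Sertad3, at 10.4 against 12.9.

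Neighbouring genes did not show changes of this size. The 2 nearest protein-coding genes on each side of each gene came to 40, of which 27 were tested. In EuMyc against WT 7 were higher and 8 lower, and in EuMyc Max KO against EuMyc 10 were higher and 8 lower. Higher and then lower were 4 of 27, or 14.8%, against 31.7% of all tested genes. These were 1700037H04Rik and Spef1 beside Hspa12b, Diexf beside Sertad4 and Ppfia1 beside Shank2. The share depended on the window: with 5 genes on each side it was 16 of 69, or 23.2%. Spef1, a microtubule-binding protein of cilia, rose by 1.95 on the log2 scale (SE 0.25, edgeR adjusted p = 1.17e-05), from 2.59 to 10.04 CPM, and fell by 1.26. 1700037H04Rik rose by 1.24 (SE 0.19, edgeR adjusted p = 7.96e-05) and fell by 0.58. The annotated ends of Hspa12b and 1700037H04Rik lie 2 bases apart on opposite strands, and where the reads between them were counted cannot be told.

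Beside Sertad4, Syt14 rose by 2.46 in EuMyc (edgeR adjusted p = 0.0129) and by a further 2.40 in EuMyc Max KO, to 9.69 ± 6.51 CPM. Beside Rbm24, Atxn1 fell by 1.91 (SE 0.14, edgeR adjusted p = 7.64e-08) and rose by 2.25 in EuMyc Max KO, and Cap2 was at 0.363 and 0.757 CPM with no call. Beside Ltbp4, Sptbn4 fell by 1.25 (edgeR adjusted p = 0.0155). Padi3 stands in a cluster with its own paralogues. Padi4 rose by 2.02 in EuMyc (edgeR adjusted p = 0.0118) but only to 2.14 ± 1.74 CPM, and without EuMyc replicate 3 it was not called (edgeR adjusted p = 0.0908). Padi1 rose by 1.19 (edgeR adjusted p = 0.0272), a call lost without WT replicate 1 or 2 or EuMyc replicate 2 or 3, at adjusted p-values of 0.0706 to 0.0955, and also by DESeq2 (0.10) and with no filter (0.0698). Padi6 fell by 1.49 (edgeR adjusted p = 0.0188), a call lost without WT replicate 1 (0.0758) or EuMyc replicate 3 (0.0737). Padi2, at 29.9 CPM in WT and 25.9 in EuMyc, had no call.

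**Figure D4:**
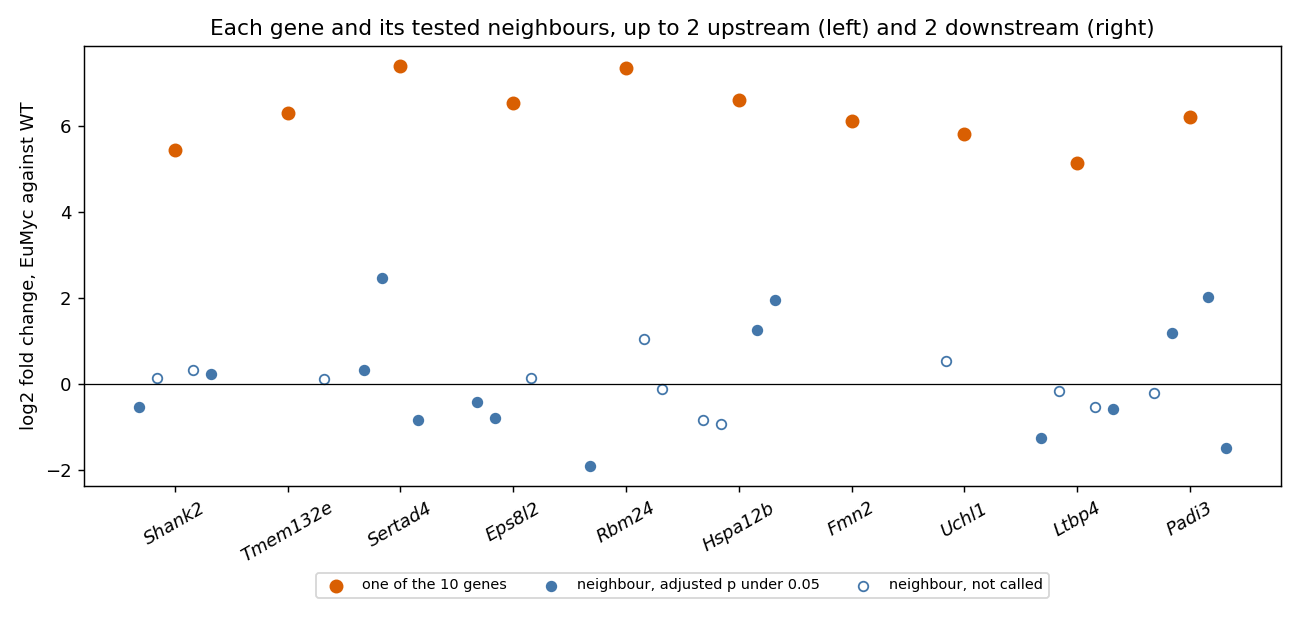
Log2 fold change in EuMyc against WT on the y axis for each of the 10 genes (orange) and its tested neighbours (blue, filled where edgeR's adjusted p is under 0.05), up to 2 upstream drawn to the left and 2 downstream to the right. The 10 genes lie between 5.12 and 7.39, and the neighbours between -1.91 and 2.46.

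Partners of the encoded proteins went in both directions. Of 7 tested postsynaptic partners of SHANK2, 1 was higher and 3 lower in EuMyc: Homer3 rose by 0.89 and Dlgap4 and Dlg4 fell by 0.81 and 1.37, by edgeR. Of 11 actin partners of FMN2 and EPS8L2, 2 were higher and 3 lower in EuMyc. Spire1, which nucleates actin together with FMN2, rose by 2.21 (SE 0.45, edgeR adjusted p = 0.0015), from 5.70 to 26.4 CPM. In EuMyc Max KO it rose by a further 1.20 (edgeR adjusted p = 0.0224), to 60.5 ± 36.6 CPM with a wide spread among mice, where Fmn2 was at 0.234 CPM. Abi3 and Wasl fell by 0.86 and 0.54. Of 12 tested genes of the TGF-beta and elastic matrix list, 8 were lower and 1 higher in EuMyc, and 7 were higher in EuMyc Max KO than in EuMyc. The receptor Tgfbr2 fell by 1.34 and the inhibitor Smad7 by 1.26, and the ligand Tgfb3 fell by 4.15 (SE 0.42, edgeR adjusted p = 1.29e-06), from 3.75 to 0.206 CPM, while the matrix protein gene Ltbp4 was at 105 CPM.

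Most marker genes of the tissues in which the 10 genes are known were low, with means under 1 CPM in EuMyc for 46 of 62. Of 63 listed genes of neurons, endothelium, muscle, epithelium and fibroblasts, 62 were matched, 9 were at 0 reads in all libraries and 29 were tested. At 0 were Gap43, Nefl and Nefm of neurons, Myh6, Myl2 and Mb of muscle, Krt5 and Krt14 of epithelium and Lum of fibroblasts. In EuMyc against WT 8 of 29 were higher and 7 lower, against 36.7% and 34.9% of all tested genes. Higher and then lower in EuMyc Max KO were 5 of 29, or 17.2%, against 31.7% of all tested genes (Map2, Egfl7, Krt18, Krt10 and Cldn4). The highest mean in EuMyc among the 8 that rose was that of Camk2a, at 20.9 ± 4.39 CPM. Egfl7, an endothelial secreted factor, rose by 4.44 (SE 0.46, edgeR adjusted p = 1.49e-06), from 0.192 to 4.34 CPM, and Cldn4, a tight junction protein, by 4.30, from 0.0571 to 1.27 CPM. Map2, a neuronal microtubule protein, rose by 1.79, from 1.51 to 5.26 CPM. The other 4 were Tubb3, Krt18, Sparc and Krt10, with rises between 1.10 and 1.48.

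By tissue, 3 of 6 tested neuronal genes were higher in EuMyc and 1 lower, and the list summed to 16.7 to 20.01 CPM in WT and 25.8 to 33.7 in EuMyc. For endothelium 1 of 7 was higher and 2 lower, and the sum was 312 to 341 CPM in WT and 116 to 139 CPM in EuMyc, most of it Pecam1, which leukocytes also carry. For heart and skeletal muscle 0 of 5 were called in EuMyc against WT by edgeR, 0 also at an unadjusted p under 0.05 and 0 by DESeq2, and the sum was 2.76 to 5.07 CPM in EuMyc. For epithelium 3 of 6 were higher and 2 lower, and for fibroblasts 1 of 5 was higher and 2 lower, with sums of 10.8 to 11.9 and 5.96 to 11.2 CPM in EuMyc.

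Other genes had the same pattern of means. Taking the highest WT mean of the 10 genes (3.00 CPM), their highest EuMyc Max KO mean (2.001) and their lowest EuMyc mean (13.7) as bounds, 18 genes met all 3, the 10 genes and 8 more. The 8, which by this rule were chosen on the same values and have no test, are Smtnl2 at 34.9 CPM in EuMyc, Pcdhgc3 at 18.5, Rsph9 at 17.5, Rtkn2 at 16.9, Kcnf1 at 16.0, Slc12a3 at 16.0, P2rx3 at 14.9 and Adarb1 at 14.8. The last 3 fall outside the 5 that the rule for named genes takes and were added after their values were seen. They include a potassium channel subunit (Kcnf1), a sodium chloride cotransporter best known from kidney (Slc12a3), an ion channel of sensory neurons (P2rx3) and a protocadherin (Pcdhgc3). Without EuMyc Max KO replicate 2 the number was 14, all 8 among them. Just outside the EuMyc Max KO bound lay Smoc1 at 2.01 CPM, Rag2 at 2.07 and Zfp428 at 2.07, and just under the EuMyc bound lay Galnt14 at 13.6 and Stox2 at 12.9. Of 75 genes that met the WT and EuMyc bounds, 57 (76%) were above the EuMyc Max KO bound.

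By likeness of profile, the genes nearest to the mean standardised log2 CPM of the 10 over the 12 libraries were Elof1 (Pearson r 0.998), Zfp41 (0.996), Hmgb1 (0.996), Rnaseh2a (0.995) and Hes6 (0.995). The 10 genes themselves had r between 0.949 (Padi3) and 0.992 (Fmn2). Each of the 10 is part of that mean profile and was chosen on these values, so their r cannot be compared with those of the other genes. The 12 points share the 4 groups, and r takes no account of size: Elof1, a transcription elongation factor, went from 31.1 to 114 and 30.8 CPM, a log2 rise of 1.88, and Hmgb1, a chromatin protein, rose by 1.85.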

How the data were processed

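RNA of B220+ splenocytes from 12 mice was sequenced from Illumina libraries, per the labels. Reads were handled with bcl2fastq 1.8.4, TopHat2 2.1.0 and HTSeq 0.6.1 on mm10, per the submitters' processing notes. The deposited values are whole-number counts per gene symbol, 1 table per mouse; no source used here gives the annotation or strand setting of the counting. The 5 summary rows that name no gene were left out of library sizes. Groups come from the genotype labels, and each library is 1 mouse.

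The analysis used edgeR 4.0.16 (limma 3.58.1, R 4.3.3): filterByExpr (12878 of 24421 genes), TMM scaling, and 1 robust quasi-likelihood model over all 12 libraries with 8 residual degrees of freedom (common biological coefficient of variation 13.7%). The threshold was an adjusted p (Benjamini-Hochberg) under 0.05 over all tested genes, and SE is the log2 fold change divided by the square root of F. The model was tested on simulated counts. Alternatives were RLE factors, library totals, no filter, a replicate term, DESeq2 1.42.0, 5 neighbours on each side and leaving out each library. Positions and exonic lengths are from GENCODE vM21, which held 95.7% of the symbols. Replicate files differed by more than sampling noise (chi-square per degree of freedom 7.46 to 65.6).

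The 10 genes and the gene lists were chosen with earlier results of these data known. Text genes follow 1 rule: the 10 genes, Myc and Max; called paralogues and 1 uncalled per family; neighbours called up then down or with an absolute log2 fold change over 1 in EuMyc; up to 3 called genes per list and 5 of other tissues; the 5 most alike in profile; and the 5 highest with the same pattern. Genes outside it are named to complete a list or count, with their values seen.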

Additional observations from a re-analysis of the deposited data

Results flagged for a closer look

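Loss of Max moved 7 of the 19 tested paralogues differently with and without the transgene, by edgeR's interaction term (adjusted p under 0.05), against 55.7% of all tested genes. The values are the log2 effect of Max loss in EuMyc cells minus that in cells without the transgene. Shank1 had 1.63 (adjusted p = 0.00733), with effects of 2.17 and 0.54. Sertad1 had 0.76 (adjusted p = 0.00945) and Sertad2 had 1.27 (adjusted p = 0.000589). Eps8 had -2.04 (adjusted p = 0.000153), with effects of -2.49 and -0.46. In the family of Uchl1 the differences were -0.85 for Uchl3 (adjusted p = 2.87e-05), -1.15 for Uchl5 (adjusted p = 4.67e-06) and -0.58 for Bap1 (adjusted p = 1.62e-05). The count was 7 or 8 under every alternative tried.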

How the results depend on the processing

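The levels rest on few reads outside EuMyc, and this limits the comparison of Max KO with WT most. The number of the 10 genes called there was 2, ran from 1 to 4 as libraries were left out, and was 4 by DESeq2. The genes called beyond Tmem132e and Ltbp4 in these counts had passed the filter only through EuMyc. The log2 fold change of Rbm24 ran from -1.08 (without Max KO replicate 2) to 0.64 and was -0.16 without WT replicate 3, and that of Padi3 ran from -2.44 to 1.27 (without WT replicate 3). In EuMyc Max KO against EuMyc, Padi4 ran from -0.69 to 0.56 (without EuMyc replicate 3). With 5 neighbours on each side, 50 of 69 tested were called in EuMyc against WT and 49 in EuMyc Max KO against EuMyc. With 2 on each side it was 15 and 18 of 27, against 71.6% and 73.7% of all tested genes. Higher and then lower were 23.2% with 5 on each side and 14.8% with 2. The median EuMyc level was 37.3 CPM by library totals, and genes sharing the pattern numbered 7 to 14 as libraries were left out. Over 170 values each, the log2 fold changes of the 10 genes lay between 4.99 and 8.69 in EuMyc against WT. In EuMyc Max KO against EuMyc they lay between -11.1 and -5.17. The genes were chosen on these differences, so the constant sign is a description and no check of them.

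The labels do not say whether replicate numbers pair the mice. In 4 of 18 same-numbered pairs the deviations correlated above 0.1 (r -0.117 to 0.344), against 5 of 36 other pairs (r -0.262 to 0.173). These values do not settle it, and the main model holds no replicate term. With a replicate block 2 of the 10 genes were called in Max KO against WT, paralogues numbered 13 and 11, neighbours 16 and 16, genes of other tissues 8 and the paralogues of the interaction 8. The interaction count was added after the data had been seen.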

Other observations

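Some relatives of the 10 genes and genes of other tissues differed between Max KO and WT. Eps8l1, a relative of Eps8l2, had 0.0191 CPM in WT and 2.48 ± 2.53 in Max KO (edgeR adjusted p = 0.0101). Camk2a, a synaptic kinase gene of the neuronal list, was higher in Max KO than in WT by 1.89 on the log2 scale (edgeR adjusted p = 6.41e-05), and its means were 5.31, 19.8, 20.9 and 23.8 CPM in WT, Max KO, EuMyc and EuMyc Max KO. Fmn1 was higher in Max KO than in WT by 1.04 (edgeR adjusted p = 0.00602), at 7.19 ± 1.01 against 3.49 ± 0.556 CPM. Map2 was lower in Max KO by a log2 fold change of -2.53 (edgeR adjusted p = 0.0126), at 0.261 against 1.51 CPM.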
